A study of Mus musculus with 72 samples.

Results

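MHC class I and its peptide loading machinery were described over 9 genes: the heavy chains H2-K1, H2-D1, H2-T23 and H2-T24, the light chain B2m, the peptide transporter subunits Tap1 and Tap2, the loading factor Tapbp, and Nlrc5, a transactivator of class I genes. Rows and peaks were taken by gene symbol, for a list of genes drawn up with earlier results of these data known. All 9 were found among the 25124 genes of the RNA table, and 20 of the 51984 peaks of the accessibility table carried the name of 1 of them. RAW264.7, a mouse macrophage-like cell line, was the source of every library, and the labels give its genotype as BALB/c. The cells had been infected with lentivirus that carried a short hairpin RNA against GFP (shGFP, the control), NCOR (shNCOR) or SMRT (shSMRT), so the controls were infected cells too, and they were left untreated in ordinary serum-containing medium. RNA-seq of polyA RNA and ATAC-seq each had 3 libraries per group. Both proteins are corepressors: they hold HDAC3, a histone deacetylase, at genes bound by nuclear receptors and other factors. The labels do not state how many hairpins or infected lines stand behind a group, nor whether its 3 libraries are separate cultures; p-values therefore rest on a spread that may be technical.

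MHC class I molecules present peptides from the cell's own proteins to CD8 T cells and are sensed by natural killer cells. Proteasomes cut proteins into peptides, TAP (a dimer of the Tap1 and Tap2 products) carries them into the endoplasmic reticulum (ER), and tapasin, the product of Tapbp, holds the heavy chain and B2m next to TAP until a peptide binds. In mice H2-K1 and H2-D1 encode classical, polymorphic heavy chains. H2-T23 encodes Qa-1, a nonclassical chain that presents leader peptides of other class I chains to NKG2A receptors, and H2-T24 lies near it in the T region. Transcription of class I genes is driven by an enhancer with NF-kB and interferon response elements and by the SXY module, where RFX factors, CREB or ATF1 and NF-Y bind and recruit NLRC5.

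Promoters were searched for set letter patterns of these elements, since 8 of the 9 fell in shNCOR. Windows of 300 bases, from 250 before the RefSeq start site to 49 after it (GRCm38.p6, the mm10 assembly of strain C57BL/6J), were available for 6 of the 9 genes: H2-K1, H2-D1, H2-T23, B2m, Tap1 and Tapbp. H2-T24, Tap2 and Nlrc5 had no entry. The windows of H2-K1 (chr17:34000284-34000583, minus strand), H2-D1 (chr17:35262844-35263143, plus strand), B2m (chr2:122147437-122147736, plus strand) and H2-T23 (chr17:36032652-36032951, minus strand) are given 5′ to 3′ on the strand of the gene. Capitals mark the letters TGACG followed 20 bases later by ATTGG, the spacing of the X2 and Y boxes of the SXY module, and matches on either strand to GGGNNTTNCC (NF-kB) or GAAANNGAAA (the core of an interferon-stimulated response element).
H2-K1: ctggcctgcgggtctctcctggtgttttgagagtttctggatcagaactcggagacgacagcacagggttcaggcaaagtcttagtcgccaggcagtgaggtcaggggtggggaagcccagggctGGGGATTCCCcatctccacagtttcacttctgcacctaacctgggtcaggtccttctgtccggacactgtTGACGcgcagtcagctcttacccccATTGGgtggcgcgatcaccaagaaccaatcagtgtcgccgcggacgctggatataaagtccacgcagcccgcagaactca
H2-D1: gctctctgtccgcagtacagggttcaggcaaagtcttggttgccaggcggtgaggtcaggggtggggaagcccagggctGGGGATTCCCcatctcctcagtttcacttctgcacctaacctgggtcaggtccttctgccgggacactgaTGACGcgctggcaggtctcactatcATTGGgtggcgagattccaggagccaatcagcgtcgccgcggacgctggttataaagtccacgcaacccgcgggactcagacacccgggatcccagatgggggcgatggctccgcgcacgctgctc
B2m: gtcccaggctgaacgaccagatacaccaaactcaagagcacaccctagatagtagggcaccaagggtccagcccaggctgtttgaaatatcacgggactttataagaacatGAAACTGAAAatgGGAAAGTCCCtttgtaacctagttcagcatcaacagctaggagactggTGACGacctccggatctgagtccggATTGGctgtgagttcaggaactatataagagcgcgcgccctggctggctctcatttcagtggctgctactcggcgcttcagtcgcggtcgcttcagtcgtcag
H2-T23: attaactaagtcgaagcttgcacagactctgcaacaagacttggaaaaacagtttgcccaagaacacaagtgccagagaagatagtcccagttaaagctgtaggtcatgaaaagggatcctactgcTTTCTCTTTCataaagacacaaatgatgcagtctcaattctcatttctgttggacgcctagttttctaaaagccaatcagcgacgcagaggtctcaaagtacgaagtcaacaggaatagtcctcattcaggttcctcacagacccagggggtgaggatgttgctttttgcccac

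The spaced X2 and Y letters stood in the windows of H2-K1, H2-D1 and B2m. H2-K1 has 2 start sites in RefSeq, and the pair ran from 55 to 26 bases before the one whose window is printed and from 41 to 12 before the other. It ran from 101 to 72 bases before the start site in H2-D1 and from 78 to 49 before it in B2m. Of 32851 RefSeq promoter windows, 31 held the same pair on either strand, or 0.0944%, and the only other gene of the lists used here with it was H2-M3. TGACG alone stood in 20.8% of windows and ATTGG alone in 37.4%. Over the 55 bases around the pair, H2-K1 and H2-D1 were identical at 45 positions, and each of them matched B2m at 25. NF-kB letters were found in the windows of H2-K1, H2-D1 and B2m and in 4.79% of all windows. Response element letters were found in those of B2m and H2-T23 and in 3.44% of all windows. Only GAAANNGAAA was searched for this element. Windows without a match, those of H2-K1 and H2-D1 among them, may hold it in other letters. In B2m both lay upstream of the pair without overlap, the response element letters from 139 to 130 and the NF-kB letters from 126 to 117 bases before the start site. None of these 3 patterns was found in the windows of Tap1 and Tapbp, and no match to TTCNNNGAA (GAS, 8.3% of windows) was found in any of the 6. A match is a run of letters in a reference of another mouse strain and says nothing about binding in these cells.

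The RNA libraries held 39.14 to 49.09 M reads (M, mega) and the ATAC libraries 6.06 to 10.84 M. RNA values are RPKM, which divides reads by exon length and by depth, so levels can be set beside each other across genes. They were tested as log2(RPKM + 1) with limma over the 10789 genes that reached 1 RPKM in 3 or more libraries, with p-values adjusted by Benjamini-Hochberg over all of them and calls made under 0.05; all 9 genes passed this filter. Ncor1, which encodes NCOR, was at 18.4, 20.2 and 18.7 RPKM in shGFP, 3.61, 4.20 and 4.30 in shNCOR, and 18.9, 20.2 and 20.2 in shSMRT, so the hairpin against NCOR lowered its target. Of 9 macrophage markers, 7 reached 1 RPKM, Csf1r, Cd68, Lyz2, Itgam, Adgre1, Cd14 and Spi1 among them, and their summed RPKM was 7050 to 7203 in shGFP, 8181 to 8465 in shNCOR and 9971 to 10510 in shSMRT. Lyz2 alone made up most of each sum, with means of 5195, 6548 and 8104 RPKM, so the sums mainly follow that gene. Of 26 markers of T and natural killer, B, dendritic, neutrophil and mast, fibroblast, epithelial and endothelial cells, only Lck reached 1 RPKM, and the sum of no such list exceeded 1.54 RPKM in any library. Of the 7, 2 rose and 3 fell in shNCOR, where 17.6% of all genes tested rose and 20.0% fell, and 6 rose and 1 fell in shSMRT, where 24.4% rose and 31.4% fell; the part of these shifts in the differences described here was not tested. In bulk RNA, fewer cells that express a gene and less RNA per cell cannot be told apart.

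Knockdown of NCOR lowered the RNA of most of the 9 genes. Under knockdown of SMRT the 9 changed in both directions, by at most 0.24 on the log2 scale except for H2-T24, which fell by 0.89. In shNCOR 8 of the 9 genes fell and none rose, with Tap2 the gene that was not called, against a background in which 20.0% of all genes tested were called lower and 17.6% higher. Groups did not overlap for those same 8 genes, as for 48.1% of all genes. The median log2 fold change of the 9 genes was -0.39, against 0.00 over all genes tested. In shSMRT 3 genes rose (H2-K1, H2-D1 and Tap2) and 2 fell (H2-T24 and Tap1), where 24.4% of all genes were called higher and 31.4% lower, and the median was 0.04 against -0.02. Groups did not overlap for 5 of the 9 in shSMRT, as for 63.1% of all genes. All 9 genes were higher in shSMRT than in shNCOR and none lower, with a median of 0.50 against -0.02 over all genes, of which 22.8% were called higher and 29.0% lower. In that comparison no gene's groups overlapped, as for 58.9% of all genes. Both knockdowns were set against the same 3 shGFP libraries, so they are not independent of each other.

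**Figure D1:**
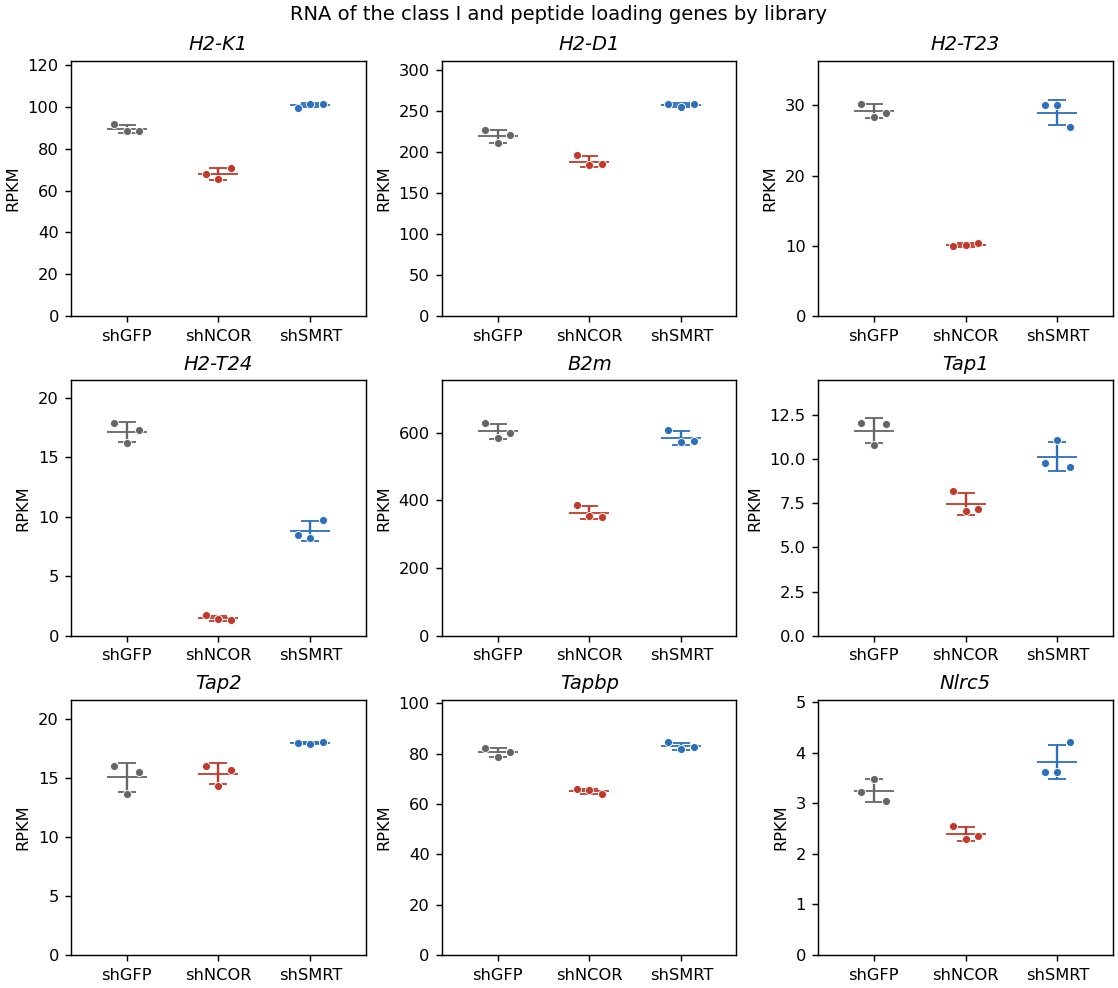
RPKM (vertical axis, from 0) of the 9 genes in each of the 9 RNA libraries by hairpin; points are libraries, and the wide bar and error bar give the mean and SD of 3 libraries. The shNCOR libraries lie below all shGFP libraries for 8 of the genes and among them for Tap2.

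H2-T24 showed the widest separation of the heavy chains. Its RPKM was 17.9, 16.2 and 17.3 in shGFP, 1.70, 1.36 and 1.32 in shNCOR, and 8.43, 8.20 and 9.75 in shSMRT. The groups were disjoint, with shSMRT between the control and shNCOR. The mean in shNCOR was 91.5% below the control, and the log2 fold change was -2.88 ± 0.08 (SE; limma adjusted p = 3.64e-10), and 7 of 10789 genes had a lower value. In shSMRT the mean was 48.6% below the control and the log2 fold change -0.89 ± 0.08 (limma adjusted p = 2.66e-06). H2-T24 thus fell under both hairpins, and it stood 1.99 higher on the log2 scale in shSMRT than in shNCOR. In shNCOR its value rested on 113 to 181 reads per library, against 1380 to 1681 in shGFP.

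H2-T23 fell in shNCOR only among the comparisons with the control. It was at 30.3, 28.4 and 29.0 RPKM in shGFP, 9.92, 10.1 and 10.4 in shNCOR, and 30.0, 30.0 and 26.9 in shSMRT. The shNCOR libraries lay far below the other 6, while shGFP and shSMRT overlapped. In shNCOR the log2 fold change was -1.44 ± 0.05 (limma adjusted p = 1.57e-09), and the shSMRT libraries differed by -0.01 ± 0.05 (adjusted p = 0.847, 95% interval -0.11 to 0.09). The difference between the knockdowns was itself called, at 1.43 ± 0.05. A noncoding gene on the other strand, A930015D03Rik, spans both H2-T24 and H2-T23 (chr17, 35994504 to 36038174), and reads were counted on both strands. Its mean was 3.92 RPKM in shGFP, 4.06 in shNCOR and 5.33 in shSMRT, and it was not called in shNCOR. It was higher in shSMRT than in shGFP (0.38, limma adjusted p = 0.0179) and than in shNCOR (0.32, limma adjusted p = 0.0405).

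The classical chains moved less, and in opposite directions under the hairpins. H2-D1 stood at 226, 210 and 220 RPKM in shGFP, 196, 183 and 185 in shNCOR, and 258, 254 and 259 in shSMRT. H2-K1 stood at 91.6, 88.2 and 88.2 RPKM in shGFP, 67.7, 65.4 and 70.9 in shNCOR, and 99.5, 101 and 102 in shSMRT. For both genes every shNCOR library lay below, and every shSMRT library above, all control libraries. The log2 fold changes in shNCOR were -0.22 ± 0.03 for H2-D1 (limma adjusted p = 0.000424) and -0.39 ± 0.03 for H2-K1 (limma adjusted p = 3.39e-06). In shSMRT they were 0.23 ± 0.03 (limma adjusted p = 0.000144) and 0.17 ± 0.03 (limma adjusted p = 0.000852). The gene model of H2-L (chr17, 35263123 to 35266730) lies inside that of H2-D1 (35263094 to 35267497), and its means of 202, 172 and 237 RPKM in shGFP, shNCOR and shSMRT cannot be told apart from H2-D1. Class I chains are near-identical copies of each other and differ between BALB/c and the C57BL/6J reference, so how reads were split among them, and its effect on the levels, was not tested.

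B2m, the light chain that every class I heavy chain here needs for assembly, was the most abundant RNA of the 9 in each group. It stood at 629, 585 and 598 RPKM in shGFP, 386, 353 and 352 in shNCOR, and 609, 573 and 575 in shSMRT. The shNCOR libraries were all lower, by 39.8% in the mean, and those of shSMRT overlapped with the control. On the log2 scale it fell by 0.73 ± 0.04 in shNCOR (limma adjusted p = 2.25e-07), while shSMRT differed by -0.04 ± 0.04 (adjusted p = 0.407, 95% interval -0.14 to 0.05). B2m lies on chromosome 2 (122147687 to 122153082), away from the MHC on chromosome 17, and reads of the opposite-strand gene model over it, Patl2, averaged 0.002 RPKM. Relative to the summed RPKM of the 4 heavy chains, B2m stood at 1.69 to 1.72 in shGFP, 1.31 to 1.41 in shNCOR and 1.45 to 1.54 in shSMRT. These ranges do not overlap; they describe the libraries and were not tested.

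The TAP subunits parted. Tap1 was at 12.1, 10.8 and 12.0 RPKM in shGFP, 8.20, 7.06 and 7.21 in shNCOR, and 9.80, 11.1 and 9.55 in shSMRT. Tap2 was at 16.0, 13.6 and 15.5 RPKM in shGFP, 16.0, 14.3 and 15.7 in shNCOR, and 18.0, 17.9 and 18.0 in shSMRT. Tap1 lay below the control in every shNCOR library and overlapped with it in shSMRT, whereas Tap2 overlapped with the control in shNCOR and lay above it in every shSMRT library. Tap1 fell by 0.57 on the log2 scale in shNCOR (SE 0.07, limma adjusted p = 6.53e-05), and Tap2 differed by 0.03 ± 0.06 (adjusted p = 0.736, 95% interval -0.10 to 0.16). In shSMRT Tap2 rose by 0.24 ± 0.06 (limma adjusted p = 0.004). The Tap1 call in shSMRT (-0.18 ± 0.07, limma adjusted p = 0.043) ended without shGFP library 1 or 3 or without shSMRT library 1 or 3, with adjusted p from 0.121 to 0.146, and with the replicate block (0.0579). The Tap1 to Tap2 ratio of RPKM was 0.755 to 0.795 in shGFP, 0.459 to 0.513 in shNCOR and 0.53 to 0.62 in shSMRT.

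Psmb9, an immunoproteasome subunit, is transcribed away from Tap1 on the opposite strand, and its gene model ends on its promoter side at 34187330 while that of Tap1 begins at 34187556. Psmb9 was at 29.4, 27.2 and 26.5 RPKM in shGFP, 23.8, 21.1 and 20.6 in shNCOR, and 29.8, 29.3 and 28.8 in shSMRT. Like Tap1 it fell in shNCOR (-0.33, limma adjusted p = 0.000599), with no overlap with the control, and it was not called in shSMRT (0.08, adjusted p = 0.224).

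Tapbp and Nlrc5 followed the heavy chains in shNCOR. Tapbp was at 82.2, 78.7 and 80.6 RPKM in shGFP, 65.9, 65.5 and 64.0 in shNCOR, and 84.5, 81.8 and 82.5 in shSMRT. Nlrc5, the least abundant of the 9 in shGFP and shSMRT, was at 3.21, 3.49 and 3.05 RPKM in shGFP, 2.55, 2.28 and 2.36 in shNCOR, and 3.62, 3.61 and 4.20 in shSMRT. Both fell in shNCOR, Tapbp by 0.30 ± 0.03 (limma adjusted p = 6.98e-06) and Nlrc5 by 0.32 ± 0.07 (limma adjusted p = 0.00435) on the log2 scale. In shSMRT Tapbp differed by 0.04 ± 0.03 (adjusted p = 0.208), and with quantile normalization it was called higher (0.146, limma adjusted p = 0.000364). Nlrc5 was higher than all control libraries in every shSMRT library, and its difference of 0.18 ± 0.07 did not pass (limma adjusted p = 0.0518). It did pass under 5 alternatives, among them a voom fit on recovered reads (0.227, adjusted p = 0.0116) and the fit without shGFP library 2 (adjusted p = 0.0381). On the scale of RPKM + 1 a difference of a gene at this level is understated: the mean was 26.2% lower in shNCOR and 17.3% higher in shSMRT.

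**Figure D2:**
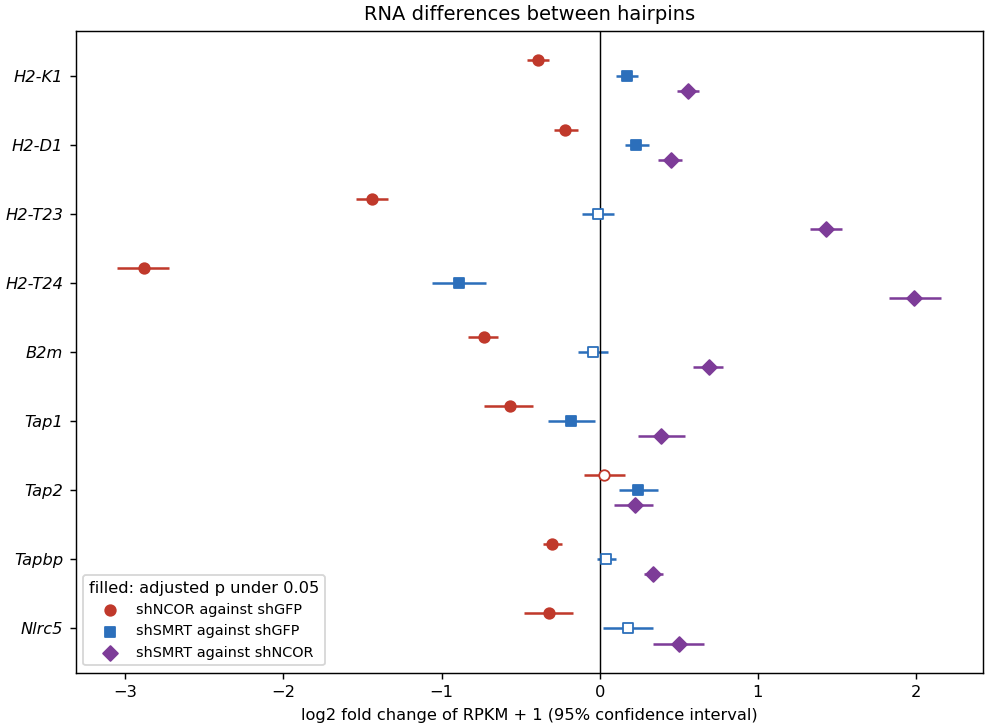
Log2 fold change of RPKM + 1 (horizontal axis) of the 9 genes in the 3 contrasts between hairpins; points are estimates over 3 libraries per group, lines are 95% confidence intervals, and filled points have an adjusted p under 0.05. Values against shGFP run from -2.88 to 0.03 in shNCOR and from -0.89 to 0.24 in shSMRT.

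The order of RNA levels changed at its lower end. In shGFP it ran B2m, H2-D1, H2-K1, Tapbp, H2-T23, H2-T24, Tap2, Tap1 and Nlrc5. In shNCOR H2-T24 came last, at a mean of 1.46 RPKM below the 2.40 of Nlrc5, and Tap2 stood above H2-T23. The neighbours H2-K1 and Tapbp did not overlap over their libraries in shGFP or shSMRT, but did in shNCOR, where H2-K1 ranged from 65.4 to 70.9 and Tapbp from 64.0 to 65.9. In shSMRT Tap1 and H2-T24 overlapped. Other than the genes chosen and unnamed or small RNA genes, those whose log2(RPKM + 1) over the 9 libraries was most like the mean standardised profile of the 9 genes were Ifitm3 (Pearson r = 0.995), Pros1 (0.992), Sumf1 (0.991), H2-Q4 (0.990) and Marcksl1 (0.990). Ifitm3, an interferon-induced membrane protein that restricts viral entry, had a shGFP mean of 580 ± 25.0 RPKM (SD over 3 libraries), against 347 ± 12.3 in shNCOR and 673 ± 18.1 in shSMRT. Pros1, which encodes protein S, a ligand of TAM receptors, was at 8.05 ± 0.507, 1.81 ± 0.152 and 11.6 ± 0.485 RPKM. These 9 points fall into 3 groups, so the correlations describe the order of the groups. Among the chosen genes r with the mean profile, which includes each gene itself, was lowest for Tap2 (0.544) and highest for Tapbp (0.989).

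Other class I heavy chains and class I-like genes fell more often than they rose in shNCOR. Of 29 listed, 20 passed the filter, 12 of which fell and 1 rose, with a median of -0.46, where 20.0% of all genes tested fell and 17.6% rose. Several share reads: the gene models of H2-Q6 and H2-Q8, of H2-Q7 and H2-Q9, and of H2-T9 and H2-T22 overlap, and H2-L cannot be told apart from H2-D1. With each overlapping pair counted once and H2-L left out, 8 of 16 loci fell and 1 rose. The largest falls were those of H2-Q8 (-1.36, limma adjusted p = 1.82e-07) and H2-Q6 (-1.22, limma adjusted p = 1.68e-07), a pair that shares reads. H2-Q8 had a mean of 23.5 RPKM in shGFP, 8.57 in shNCOR and 16.1 in shSMRT, and it fell in shSMRT as well (-0.52). Mr1, which presents vitamin metabolites to MAIT cells, was the only gene of the list that rose in shNCOR (0.23, limma adjusted p = 0.0483). In shSMRT 6 rose and 6 fell, with a median of 0.08, beside 24.4% and 31.4% of all genes; by locus 5 rose and 4 fell. Procr, the endothelial protein C receptor, a class I-like protein, rose most (0.77, limma adjusted p = 0.000185), and Mr1 followed (0.40, limma adjusted p = 0.00198). H2-K2 had the lowest called value (-1.06, limma adjusted p = 0.0461), but its control libraries were at 5.03, 1.14 and 5.68 RPKM against 0.961, 1.15 and 1.28 in shSMRT. The groups overlapped, with shGFP library 2 at the level of shSMRT. Between the knockdowns 15 of the 20 were higher in shSMRT and none lower (22.8% and 29.0% of all genes), or 11 of 16 loci. H2-M3, which presents N-formylated peptides and held the spaced X2 and Y letters, fell under both hairpins, by 0.17 in shNCOR and 0.25 in shSMRT.

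The immunoproteasome and its activator, which make peptides for class I, fell in part. In shNCOR 5 of 7 genes fell and none rose, with a median of -0.33, beside 20.0% and 17.6% of all genes. Psmb8, a catalytic subunit encoded beside the TAP genes, fell most, from a mean of 79.2 to 49.7 RPKM (-0.66, limma adjusted p = 1.62e-05), followed by the activator subunit Psme1 (-0.44, limma adjusted p = 6.19e-07), while Psme2 (-0.23) and Psmb9 (-0.33) fell least. In shSMRT 4 fell and none rose, with a median of -0.18, beside 31.4% and 24.4% of all genes; Psme3 (-0.80, limma adjusted p = 1.82e-09) and Psmb10 (-0.28, limma adjusted p = 0.00406) fell most, and Psmb8 (-0.18) and Psme1 (-0.27) least. Psme3 encodes the activator subunit that forms a separate, mainly nuclear ring, and it was not called in shNCOR (0.05, adjusted p = 0.194). Between the knockdowns 3 genes were higher and 1 lower in shSMRT (22.8% and 29.0% of all genes).

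Genes of peptide trimming, inside or outside the ER, and of folding and peptide editing in the ER changed in both directions in shNCOR. Of 16, 6 rose and 4 fell, with a median of 0.05, and the 4 that fell are near the 20.0% of all genes that did, with 17.6% rising. The aminopeptidases Npepps (0.27, limma adjusted p = 0.000138) and Lnpep (0.25, limma adjusted p = 0.0152) rose most. Sec61a1, a channel subunit for entry of proteins into the ER (-0.25, limma adjusted p = 3.1e-05), and Erap1, the aminopeptidase that trims class I peptides in the ER (-0.22, limma adjusted p = 0.000267), fell most. In shSMRT 2 rose, Lnpep (0.17) and Tpp2 (0.09), and 8 fell, beside 24.4% and 31.4% of all genes, led by Sec61a1 (-0.42, limma adjusted p = 3.74e-07) and the chaperone Canx (-0.30, limma adjusted p = 1.13e-06). Between the knockdowns 1 was higher in shSMRT and 9 were lower (22.8% and 29.0% of all genes), with a median of -0.14. Pdia3, which is part of the peptide loading complex with Tapbp, rose by 0.18 in shNCOR and fell by 0.20 in shSMRT on the log2 scale.

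Among transcription factors of class I genes, Irf7 and Irf9 had the lowest values in shNCOR. Of 21 listed, 20 passed the filter, 8 of which fell and 2 rose, with a median of -0.09, beside 20.0% and 17.6% of all genes. Those that fell most were Irf7, the interferon regulatory factor that amplifies type I interferon (-2.74, limma adjusted p = 1.62e-09; 19.8 RPKM in shGFP, 2.15 in shNCOR and 12.5 in shSMRT), and Irf9, the DNA-binding subunit of ISGF3 (-1.25, limma adjusted p = 1.12e-07). Rfxank and Nfya, which bind the X and Y boxes with their partners, rose by 0.15 and 0.10. In shSMRT 7 rose and 8 fell, with a median of 0.04, shares not far from the 24.4% and 31.4% of all genes. Relb (0.45, limma adjusted p = 0.000104) and Rfx5 (0.31, limma adjusted p = 0.000803) rose most, and Irf7 (-0.63) and Nfya (-0.51) fell most. Between the knockdowns 12 were higher in shSMRT and 3 lower (22.8% and 29.0% of all genes).

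Of 15 listed interferon ligands and receptors, with their kinases and feedback genes, 9 passed the filter. None of the listed ligands did, at no more than 0.061 RPKM in any library, so no ligand was tested. In shNCOR 2 rose, Ifnar1 (0.37) and Jak1 (0.19), and 3 fell, with a median of 0.00, beside 17.6% and 20.0% of all genes. The 9 genes are too few to compare such shares closely. Usp18, a feedback inhibitor at the type I interferon receptor that interferon itself induces, fell most (-2.47, limma adjusted p = 2.71e-10; 18.1 RPKM in shGFP and 2.43 in shNCOR), followed by Socs3 (-0.88). In shSMRT 5 rose, led by Ifnar1 (0.39) and the interferon gamma receptor subunit Ifngr2 (0.38), and 3 fell, led by Usp18 (-0.43) and Socs3 (-0.33), with a median of 0.10, beside 24.4% and 31.4% of all genes. Between the knockdowns 5 were higher in shSMRT and 1 lower (22.8% and 29.0% of all genes). Of 10 class II genes only Cd74 and H2-DMa passed the filter. Cd74, the invariant chain, fell under both hairpins, by 0.81 and 0.51 on the log2 scale, and H2-DMa rose in shSMRT only (1.52, limma adjusted p = 2.05e-07), from a mean of 2.12 to 7.89 RPKM; in shNCOR it differed by -0.14 (adjusted p = 0.247), and the difference between the hairpins was called (1.66).

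**Figure D3:**
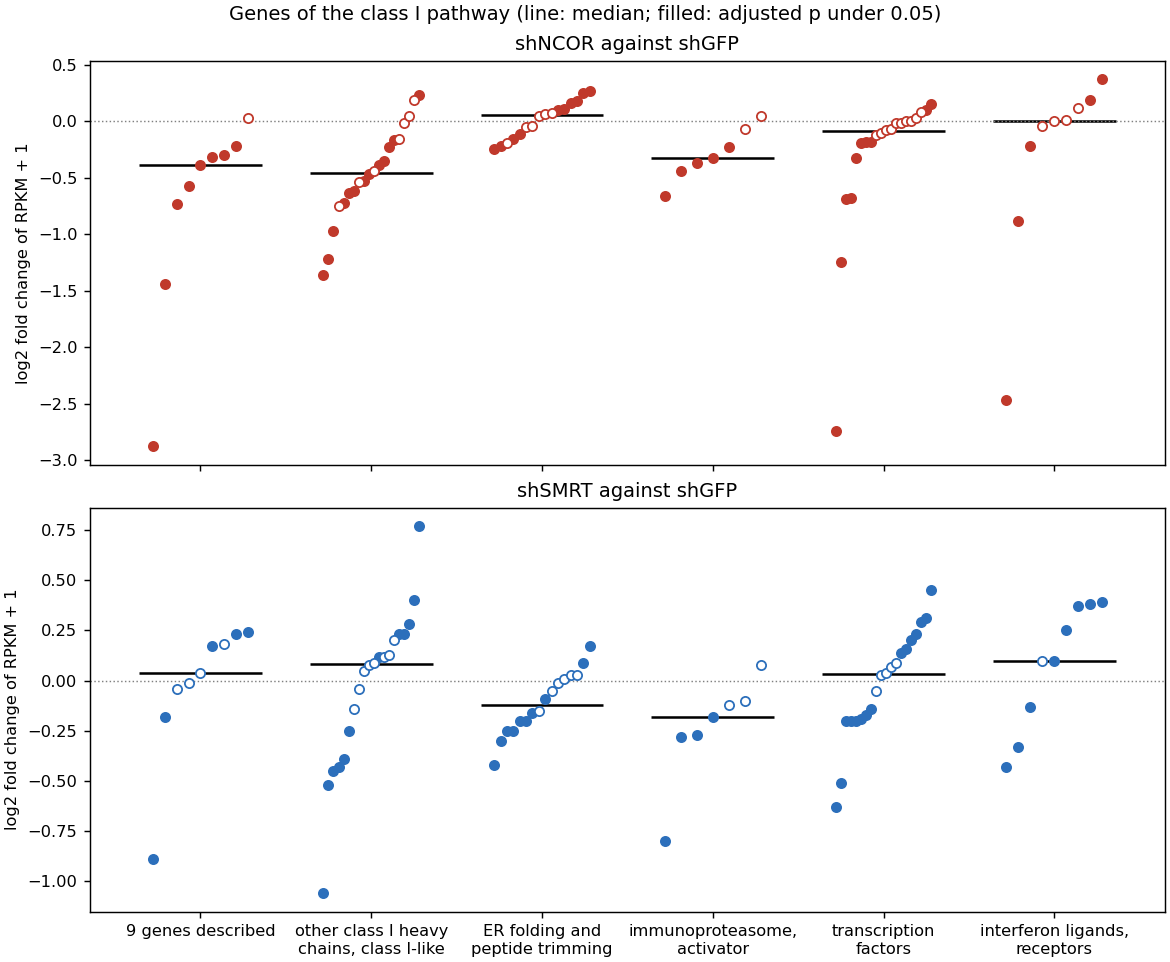
Log2 fold change of RPKM + 1 against shGFP (vertical axis, a separate scale for each hairpin) of every tested gene of the class I pathway, by list; filled points have an adjusted p under 0.05 and black lines are medians. In shNCOR the medians are -0.39 for the 9 genes, -0.46 for other class I chains and 0.05 for ER folding and peptide trimming.

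Accessibility was read at the 20 peaks that the deposited table names for these genes, as reads per peak scaled to 10 M per library. Values were tested with limma as log2(value + 5) over 51469 peaks with at least 10 in at least 3 libraries, and all 20 peaks passed, each with 6 to 509 reads per library. In shNCOR 2 of the 20 were called lower and none higher, against 4.00% of all peaks called lower and 4.58% higher. Groups did not overlap for 6 of the 20, as for 25.9% of all peaks. In shSMRT 3 were called lower and none higher, against 10.9% and 6.81% of all peaks, with 5 whose groups did not overlap against 35.2%. Between the knockdowns 1 was higher in shSMRT and 3 were lower, against 6.93% and 17.5% of all peaks, with 8 whose groups did not overlap against 35.7%. The share of reads in peaks was 50.6 to 54.0% in shGFP, 54.7 to 55.7% in shNCOR and 47.6 to 49.9% in shSMRT, and the median log2 fold change over all peaks was 0.05, -0.09 and -0.12 in these 3 contrasts. When values were scaled to reads in peaks, the median between the knockdowns moved from -0.119 to 0.041, the number of all peaks called lower from 8999 to 2582, and the 3 lower calls among the 20 peaks ended. The part of this share in the other results was not tested.

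Both peaks called lower in shNCOR were those of H2-T24, the gene whose RNA fell most. The promoter peak (chr17, 36020338 to 36021053, mm10, centred 135 bases upstream of the start site) held 168, 198 and 206 in shGFP, 110, 111 and 119 in shNCOR, and 139, 133 and 127 in shSMRT. The upstream peak (chr17, 36023691 to 36024198), 3384 bases before the start site, in the intron of A930015D03Rik, held 144, 123 and 136 in shGFP, 80.5, 89.1 and 91.3 in shNCOR, and 100.5, 113 and 80.7 in shSMRT. At both peaks all shNCOR and all shSMRT libraries lay below all control libraries. The promoter peak fell by 0.72 ± 0.12 in shNCOR (limma adjusted p = 4.6e-05) and by 0.50 ± 0.12 in shSMRT (limma adjusted p = 0.00311) on the log2 scale. The upstream peak fell by 0.60 ± 0.15 in shNCOR (limma adjusted p = 0.00506) and by 0.44 ± 0.15 in shSMRT (limma adjusted p = 0.0284). The promoter peak was called under all alternatives in both contrasts. The call of the upstream peak in shNCOR ended without the mean-variance trend (adjusted p = 0.0577). In shSMRT its call also ended with values scaled to reads in peaks (-0.346, adjusted p = 0.102), without shGFP library 1 (0.14) or 3 (0.0891), and without shSMRT library 1 (0.0562) or 3 (0.174).

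**Figure D4:**
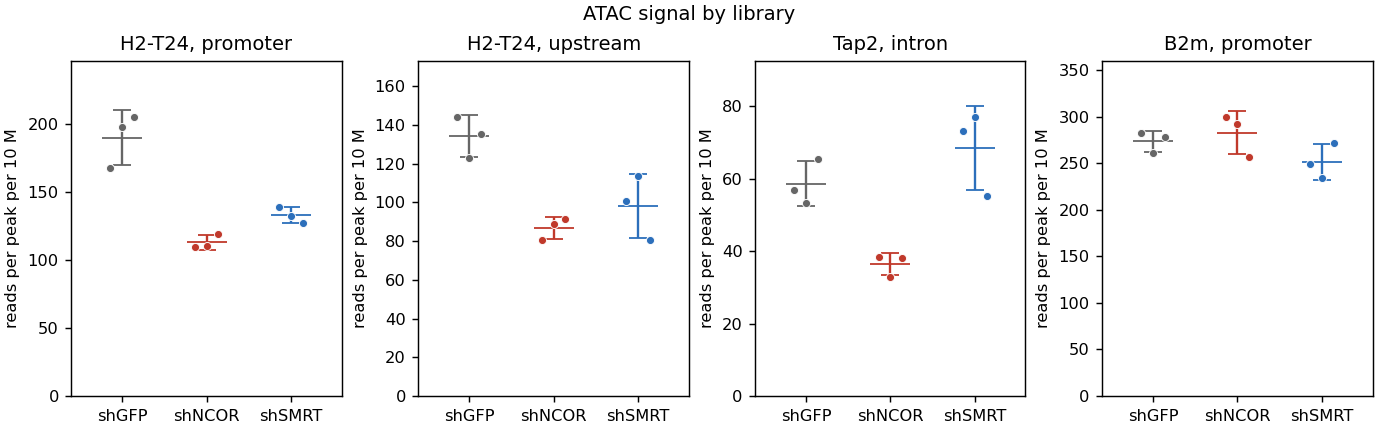
Reads per peak per 10 M reads (vertical axis, from 0) in each of the 9 ATAC libraries at both H2-T24 peaks, the Tap2 intron peak and the B2m promoter peak; points are libraries, and the wide bar and error bar give the mean and SD of 3 libraries. The shNCOR libraries lie below all control libraries in the first 3 panels and overlap with them at B2m.

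Promoter peaks of the other genes did not pass in shNCOR, although the RNA of 6 of them fell. The B2m promoter peak held 282, 261 and 278 in shGFP and 300, 292 and 256 in shNCOR, a log2 difference of 0.05 with a 95% interval of -0.15 to 0.24. The H2-T23 promoter peak held 81.6, 85.3 and 81.2 in shGFP and 79.2, 87.5 and 79.9 in shNCOR, a difference of -0.01 with an interval of -0.35 to 0.33. In both the groups overlapped, while the RNA of H2-T23 had fallen by 1.44 on its own log2 scale. At the promoter peak between Tap1 and Psmb9 the difference was -0.02 (-0.21 to 0.18), at H2-K1 it was 0.10 (-0.10 to 0.30), at H2-D1 0.06 (-0.11 to 0.23) and at Tapbp 0.06 (-0.16 to 0.29). The H2-D1 promoter peak held the most reads of the 20, in values that are not corrected for peak width. Its shGFP mean was 474 ± 32.9 (SD over 3 libraries), against 494 ± 45.0 in shNCOR and 466 ± 39.7 in shSMRT. RNA and ATAC came from separate libraries and are on different scales, so their sizes are given side by side only.

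Tap2 had a peak that separated the knockdowns. In intron 5 of the gene (chr17, 34210609 to 34210964) it held 57.0, 53.4 and 65.5 in shGFP, 38.3, 33.0 and 38.1 in shNCOR, and 73.2, 77.1 and 55.2 in shSMRT. The shNCOR libraries lay below the other 6, and shSMRT overlapped with the control. The peak was higher in shSMRT than in shNCOR by 0.82 ± 0.21 on the log2 scale (limma adjusted p = 0.00318), which held under all alternatives that included it (0.642 to 0.974). Neither knockdown passed against the control: shNCOR differed by -0.62 ± 0.21 (limma adjusted p = 0.0537) and shSMRT by 0.20 ± 0.21 (adjusted p = 0.556). The shNCOR difference passed with values scaled to reads in peaks (adjusted p = 0.0329) and without shSMRT library 3 (0.0486). Its depth was 20 to 78 reads per library. The Tap2 promoter peak, at 18 to 66 reads, was not called in any contrast.

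Beside the H2-T24 peaks, 1 peak fell in shSMRT against the control, at the Tapbp promoter, and 3 peaks of Tapbp and H2-D1 were lower in shSMRT than in shNCOR. The Tapbp promoter peak (chr17, 33919369 to 33919706) held 192, 198 and 205 in shGFP, 202, 200 and 221 in shNCOR, and 136, 157 and 188 in shSMRT. All shSMRT libraries lay below the other 6, and library 1 was the lowest. Its fall against the control (-0.31 ± 0.11, limma adjusted p = 0.0484) ended when any of the 3 shGFP libraries, or shSMRT library 1 or 2, was left out, with adjusted p from 0.0929 to 0.289, without shNCOR library 1 (0.0519), and with values scaled to reads in peaks (0.196). Against shNCOR the promoter peak (-0.37, limma adjusted p = 0.0121), the exon 3 peak of Tapbp (-0.45, limma adjusted p = 0.0493) and the H2-D1 peak 4721 bases upstream (-0.39, limma adjusted p = 0.0259) were lower. Without shNCOR library 2 or 3 or shSMRT library 1, 1 of these 3 remained called. The call of the Tapbp exon 3 peak also ended when any of the 3 shGFP libraries was left out (limma adjusted p from 0.0545 to 0.0562). That of the H2-D1 peak also ended without shSMRT library 2 (limma adjusted p = 0.0696) or 3 (0.076). The RNA of both genes was higher in shSMRT than in shNCOR, by 0.34 for Tapbp and 0.45 for H2-D1.

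**Figure D5:**
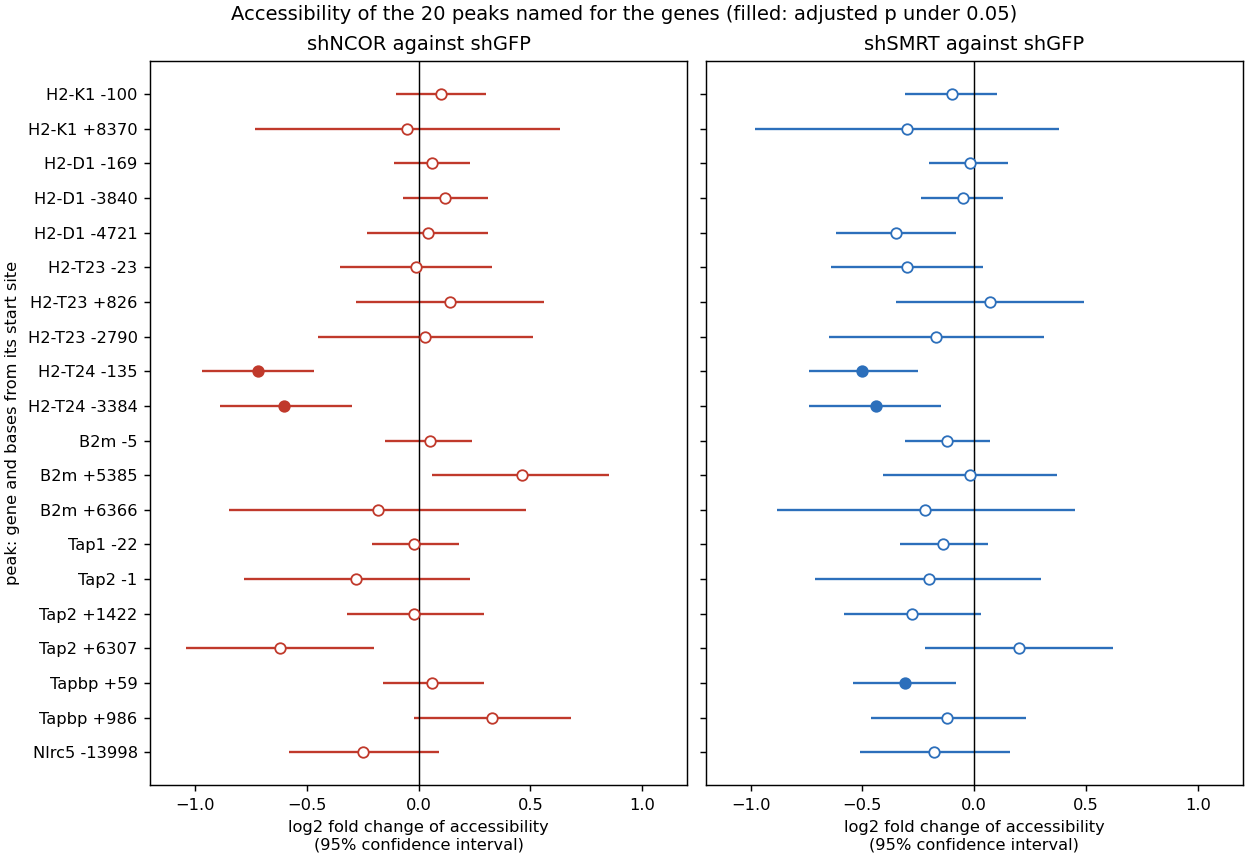
Log2 fold change of accessibility against shGFP (horizontal axis) at the 20 peaks, each named by gene and distance in bases from the start site (minus, upstream); lines are 95% confidence intervals and filled points have an adjusted p under 0.05. Filled points are both H2-T24 peaks under each hairpin and the Tapbp promoter peak in shSMRT.

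Nlrc5 carried a single named peak (chr8, 94458574 to 94458956), 13998 bases upstream of the start site that the table uses. It held 93.9, 76.9 and 84.8 in shGFP, 73.9, 74.3 and 64.7 in shNCOR, and 75.1, 79.4 and 69.3 in shSMRT. The shNCOR libraries lay below all control libraries and those of shSMRT overlapped with them. Neither difference passed, at -0.25 ± 0.17 (limma adjusted p = 0.407) and -0.18 ± 0.17 (adjusted p = 0.503).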

How the data were processed

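RNA-seq (9 libraries) and ATAC-seq (9 libraries) were used out of 72 samples; the other 54, from ChIP and CUT&Tag, were not analysed here. Groups and library numbers came from the titles, although the ATAC protocol in the labels speaks of wild-type cells. The members and lists were chosen with earlier results of these data known. The deposited RNA values are RPKM; HOMER made them from reads on both strands over exons of mm10, with 1 transcript per gene, per the file headers. The deposited ATAC values are reads per peak of a merged list, which the authors scaled to 10 M reads, per the file headers; a shift of reads for the transposase is not stated. Decimal commas were read as points, and 1 peak with a cell that held no number was left out. HISAT2, Bowtie2, MACS2, HOMER and DESeq2, with builds mm10 and mm9, are named in the submitters' processing notes; versions and roles are not given in the sources used here.

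A step of 1 read could be recovered from the low values (tolerance 0.1 read) and gave the depths. A limma fit was made per assay over its 9 libraries with a mean-variance trend (limma 3.58.1, R 4.3.3), checked on simulated data. Named are all 9 genes and 20 peaks, Ncor1, Psmb9, in each list the 2 called genes at either end of the log2 fold changes against shGFP, and the 5 genes most like the mean profile. H2-M3, Pdia3, H2-L, A930015D03Rik and Psme3 in shNCOR were added after their values were seen. The gene of SMRT and 1 listed transcription factor are not reported here. Alternatives were other offsets, filters, scalings and variance models, voom on recovered reads, fits on 6 libraries, a replicate block, leaving out each library, and peaks within 1 kb. Promoter sequences are from RefSeq (GRCm38.p6). Figures were drawn with matplotlib 3.10.9.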

Additional observations from a re-analysis of the deposited data

How the results depend on the processing

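Each of the 9 RNA results kept its direction and its side of the threshold under all 19 alternatives tried in shNCOR against shGFP and in shSMRT against shNCOR (170 values each, Tap2 changing sign in 2 of them in the former while uncalled). In shSMRT against shGFP the number of the 9 genes called lower went from 2 to 1 without a filter, with a common median, without the mean-variance trend and with the replicate block, and ranged from 1 to 2 when libraries were left out; Tap1 was the gene lost. Tapbp was called higher there with quantile normalization (0.146, adjusted p = 0.000364). Of 379 values for the 20 peaks in each contrast, 376 in shNCOR, 358 in shSMRT and 351 between the knockdowns kept their side of the threshold. Peaks called lower in shNCOR went from 2 to 1 without the trend and within 1 kb of a start site, and were 2 to 3 when libraries were left out. In shSMRT they went from 3 to 1 with values scaled to reads in peaks, with quantile normalization and without the trend (1 to 4 when libraries were left out). Between the knockdowns the peaks called higher went from 1 to 2 when scaled to reads in peaks, 3 with quantile normalization and 0 within 1 kb; those called lower went from 3 to 0 under both scalings and without the trend (1 to 3 when libraries were left out). The H2-D1 promoter peak turned from -0.08 to 0.222 (adjusted p = 0.00608) with quantile normalization. The cause of these changes was not tested.

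Over all peaks, those called higher in shNCOR went from 2357 to 1458 when scaled to reads in peaks and 842 without the trend (1228 to 2457 when libraries were left out), and those called lower from 2057 to 1057 without the trend (1156 to 2131). In shSMRT lower calls went from 5595 to 2800 when scaled, 3358 with quantile normalization and 1743 without the trend (2710 to 6247). Between the knockdowns higher calls went from 3565 to 2365 without the trend, and lower calls from 8999 to 2582 when scaled, 2401 with quantile normalization and 2468 without the trend. Over all features tested, deviations of same-numbered libraries from their group means correlated at -0.06 to 0.105 in RNA and -0.043 to 0.022 in ATAC. A correlation over all features cannot show whether single genes share an effect of the library number. B2m, for example, was highest in library 1 of every group. Beyond the Tap1 call, the replicate block ended the calls of the Tapbp promoter peak in shSMRT (-0.310, adjusted p = 0.0526) and of the Tapbp exon peak between the knockdowns (0.0507). With 6 to 509 reads per peak and library, counting error limits the smaller peaks.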

Other observations

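RefSeq gives Nlrc5 a longer span (chr8, 94434335 to 94527272, GRCm38.p6) than the transcript counted in the RNA table, which starts at 94472763, and the peaks near that earlier start carry the name of a noncoding gene, 9330175E14Rik. These peaks were looked at after the values of the named peak were seen. The peak on the earlier start (94434091 to 94434464) had a shGFP mean of 120 ± 9.99 (SD over 3 libraries), against 103 ± 4.25 in shNCOR and 91.1 ± 19.0 in shSMRT, and was not called (limma adjusted p = 0.428 and 0.0576). A peak 5695 bases upstream of that start (94428494 to 94428787) held 114, 105 and 98.7 in shGFP, 50.1, 54.5 and 93.9 in shNCOR, and 62.9, 64.7 and 56.6 in shSMRT. It was lower under both hairpins, with log2 differences of -0.69 ± 0.18 (shNCOR, limma adjusted p = 0.011) and -0.74 ± 0.18 (shSMRT, limma adjusted p = 0.00324), and shNCOR library 3 stood near the control. A peak 4782 bases upstream of that start was lower in shSMRT (-0.72, limma adjusted p = 0.0135) and not called in shNCOR (0.09, adjusted p = 0.862). Inside the longer span, the peak at 94437049 to 94437261 differed by -0.37 in shNCOR and -0.13 in shSMRT. The peak at 94492078 to 94492703 differed by 0.12 and -0.06, and neither peak was called under either hairpin. Of all peaks tested, 4.00% were called lower in shNCOR and 10.9% in shSMRT. Whether any of these peaks acts on Nlrc5 was not tested.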
